A study of Homo sapiens with 8 samples.

Results

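m6A regions that were called in untreated HCT116 cells and in neither culture treated with Fusobacterium nucleatum are described here. Peaks of 4 deposited lists were merged into union regions wherever their exon blocks shared at least 1 bp on the same strand, and regions were chosen by the peak calls: a region was Control-only when it held a peak in both Control lists and in neither FUSO list. Of 22001 union regions, 581 (2.64%) were Control-only, and they lay in 567 of the 11155 genes with any region (5.08%). Because the peak calls themselves chose these regions, their p-values, their number and the absence of a FUSO peak are given as descriptions, with no test. A region without a peak is one in which none was called, which is not a measurement of absent m6A.

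HCT116 is an established human colorectal cancer cell line. Control cells received PBS, and FUSO cells received F. nucleatum at 100 bacteria per cell for 2 h, as given in the study's methods. Each condition had 2 biological replicates, and each replicate gave an input library of the RNA and a library of RNA fragments pulled down with an antibody against m6A (IP), so that the 8 samples fell into 4 groups of 2. Both conditions used this single line.

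N6-methyladenosine (m6A) is a methyl mark on adenosines inside mRNA. It is written by the METTL3-METTL14 complex in the sequence context called DRACH (A, G or T, then A or G, then A, then C, then A, C or T), of which GGAC is the most used core, it is removed by FTO and ALKBH5, and it is read by YTH-domain proteins that affect splicing, decay and translation. In most cells the mark is densest in long exons, around stop codons and in 3′UTRs. Antibodies against m6A also bind m6Am, a related mark on the base next to the cap of many mRNAs, so that at the very 5′ end of a transcript the 2 marks cannot be told apart by this assay.

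The 10 windows below come from 10 of the 20 Control-only regions with the lowest p-values and are shown because these regions were the most strongly called. Each line gives 25 nt of GRCh37 (hg19), 5′ to 3′ on the gene's strand, centred on the adenosine of the GGAC nearest the middle of the region, or of the nearest DRACH where no GGAC lay inside, and capitals mark that motif. The place named is that of the midpoint of the whole region.
ID1, chr20:30193094-30193118, plus strand, 5′UTR: tccacgttctTAACTgttccatttt
SRSF9, chr12:120907306-120907330, minus strand, CDS: aggacttggaGGACctgttctacaa
ATP5F1D, chr19:1241870-1241894, plus strand, CDS: ccgccgcccgGGACttggccgcctc
CPOX, chr3:98312015-98312039, minus strand, CDS: aagacctcggGGACgcgggccactt
EIF4A3, chr17:78120758-78120782, minus strand, 5′UTR: gctcttccgcGGACtctgaatcatg
NDUFAF8, chr17:79213111-79213135, plus strand, CDS: ggaagaggacGGACctaagatggcg
NOL7, chr6:13615637-13615661, plus strand, CDS: aggcgatggtGGACgagggccagct
SLC7A5, chr16:87902919-87902943, minus strand, CDS: ccaagagcgcGGACggctcggcgcc
AES, chr19:3053771-3053795, minus strand, 3′UTR: ttgggaggggGGACagaggggagac
HEBP2, chr6:138725503-138725527, plus strand, 5′UTR: ccgggaggagGGACcgggtctgcgg
The next 5 windows come from the regions of the genes whose expression rose, which are described further on.
NFKBIA, chr14:35873759-35873783, minus strand, CDS: agcggctactGGACgaccgccacga
SRF, chr6:43139352-43139376, plus strand, 5′UTR: gattcctcgcTGACTgcccgtccgc
DUSP8, chr11:1577967-1577991, minus strand, CDS: gggcgccccgGGACcaggcggcggc
SCAF4, chr21:33057769-33057793, minus strand, CDS: tctgcctcctGGACccccacctcct
PRSS23, chr11:86662534-86662558, plus strand, 3′UTR of a longer transcript: tttgaagattTGACCgaattttgaa
The motif marks a match in the letters and not a mapped methylated base. Of these 15 windows, those of ID1, SRF and PRSS23 hold a DRACH without GGAC. The regions of ID1, ATP5F1D, EIF4A3, NDUFAF8, NOL7 and HEBP2, 6 of the 10 first shown, began at base 1 of their transcripts, while that of AES lay in the 3′UTR.

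Across all members, 411 regions (70.7%) held a GGAC and 541 (93.1%) a DRACH on the gene's strand. GGAC occurred 6.41 times per kb in Control-only regions, 4.15 times per kb in the 524 regions called only in FUSO, and 5.05 times per kb in the 11341 regions present in all 4 lists. DRACH went the other way, at 17.6, 23.0 and 21.6 times per kb in the same order, and was sparsest in the members. A longer region is more likely to hold a motif by length alone, and Control-only regions were short, with a median of 210 nt. The median was 181 nt for the FUSO-only regions and 595 nt for the regions in all 4 lists. Among regions of 100 to 200 nt, 60.1% of 233 Control-only regions held a GGAC, beside 54.0% of all 3986 union regions of that length. Among those of 200 to 300 nt, the shares were 74.5% of 196 and 71.2% of 3327. At like length the share with a GGAC was thus slightly higher in the members than in all regions, while DRACH was slightly less frequent (89.3% against 92.5%, and 97.4% against 98.5%).

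The base composition of the members also differed from that of the other classes. Their median GC content was 61.7%, beside 45.0% for the FUSO-only regions and 50.3% for the regions in all 4 lists. Of the 581 members, 138 (23.8%) had a GC content of at least 70%, against 8 (1.53%) of the FUSO-only regions. Read the other way, 11.2% of all 1229 union regions with a GC content of at least 70% were Control-only and 0.651% were FUSO-only, whereas under 40% GC these shares were 0.785% and 4.83% of 3312 regions. The share of Control-only regions rose with each step in GC content and that of FUSO-only regions fell with each step, as the plot by GC class shows.

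**Figure D1:**
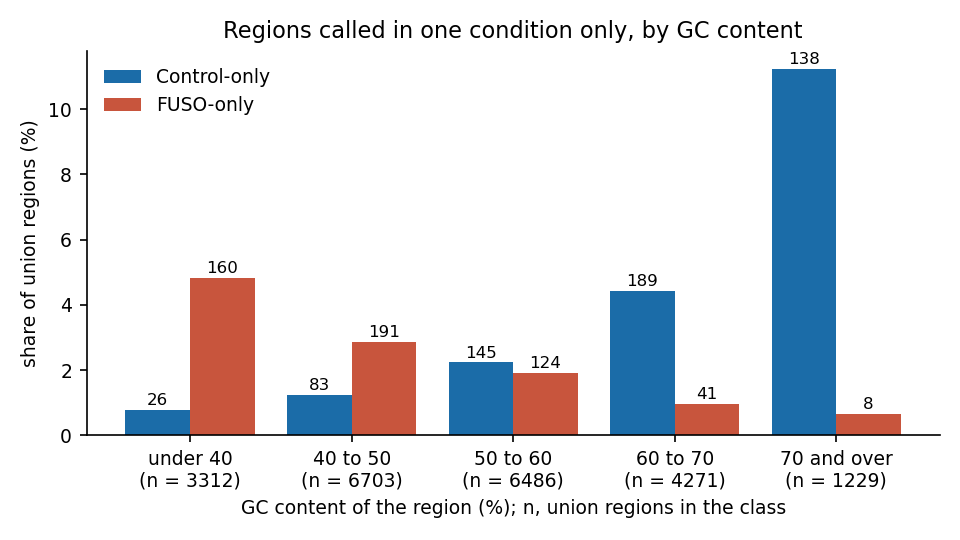
Share of all union regions in each class of GC content (x axis, %) that were Control-only (blue) or FUSO-only (red); the number over each bar is the count of regions. Control-only regions made up 0.785% of the lowest class and 11.2% of the highest, and FUSO-only regions 4.83% and 0.651%.

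The lists differed in the same direction when the Control-only and FUSO-only regions were set aside. Regions called in a single list stayed in, and the shares below were not computed without them. Of these single-list regions, 19.6% in Control 1, 15.9% in Control 2, 5.30% in FUSO 1 and 4.88% in FUSO 2 had at least 70% GC. Among all the regions left in, those with at least 70% GC made up 4.06% and 4.28% of the Control 1 and Control 2 lists. In the FUSO 1 and FUSO 2 lists they made up 3.09% and 2.37%. Both Control values lay above both FUSO values, and with 2 lists against 2 no exact permutation test can reach 0.05. This order includes the single-list regions and is not shown to hold for the regions called in more than 1 list. Among the 11341 regions called in all 4 lists, 18.9% had higher (weaker) p-values in both FUSO lists than in both Control lists and 15.7% had lower ones. For the 215 of these regions with at least 70% GC the shares were 45.6% and 4.19%, and for the 1602 under 40% GC they were 7.93% and 23.2%. With any 1 list left out, the regions then called only in Control that were not among the 581 had a median GC content between 57.2% and 59.0%, and the like regions of FUSO between 47.1% and 49.2%. For the condition that lost a list, these were the single-list regions already given above, so they are not a separate set. The part of sequence composition in which regions were called in Control only was not tested.

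By place, the members lay more often in the 5′UTR than the other 2 classes did, whether placed by midpoint or by start. On the canonical coding transcript, 453 members could be placed by their midpoint with at least 90% of their bases on it. Of these, 63 (13.9%) fell in the 5′UTR, 254 (56.1%) in the coding sequence, 45 (9.93%) within 100 nt of the stop codon and 91 (20.1%) in the 3′UTR beyond it. The regions in all 4 lists were placed in the 5′UTR in 2.18% of cases, in the coding sequence in 44.0%, at the stop codon in 19.4% and in the 3′UTR in 34.4%. FUSO-only regions were most often in the 3′UTR (45.4%) and seldom in the 5′UTR (4.08%). The plot of transcript places shows these 3 profiles side by side. The midpoint of a long region lies further from its start, and the all-list regions were longer. Placed by their start, 25.4% of members fell in the 5′UTR, beside 11.8% of all-list and 7.03% of FUSO-only regions. In the coding sequence the shares by start were 51.7%, 62.8% and 39.5%, so members no longer stood above all-list regions there.

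Many members lay at the start of the transcript. Of the 453 placed members, 108 (23.8%) began within 150 nt of the transcript start, beside 9.97% of regions in all 4 lists and 5.67% of FUSO-only regions. Of the 20 members with the lowest p-values 11 were among these, and of the 102 with p-values of at most 1e-05 in both Control lists 35 were. Of the 108, 31 began at the first base of the transcript, 85 held a GGAC, and their median GC content was 71.4%. Their genes were expressed at a median of 24.3 FPKM, above the median of 9.07 FPKM over all genes with a member. GC content moved with place: its median was 73.0% for members in the 5′UTR, 62.1% in the coding sequence, 59.4% at the stop codon and 52.9% in the 3′UTR. At each of these places the median stood above 50.3%, the median of the regions in all 4 lists over every place. The GC content of all-list regions was not taken place by place, so no comparison at like place is given.

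The remaining 128 members were off the canonical coding transcript. Another coding transcript held 47, of which 22 fell in its 5′UTR, and a noncoding transcript held 38, 28 of them annotated as lncRNA. A further 34 were only partly exonic, 5 touched no exon of this annotation, and 4 lay in an intron. The span of 21 members crossed a region called on the opposite strand. For 10 of these the opposite region had a peak in a FUSO list, as at CIDEB, where the NOP9 region was present in all 4 lists. In 6 cases the opposite region was Control-only too: MZT2B with SMPD4, AFG3L1P with CENPBD1, and PRSS23 with FZD4 had nearly the same span on both strands. Whether reads were assigned by strand is not given in the sources used here, so the gene behind such a region is uncertain.

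The peak p-values of the members spanned a wide range. The median of the larger of the 2 Control p-values was 0.00079, and 102 members (17.6%) had a p-value of at most 1e-05 in both Control lists. The weakest member had a larger p-value of 0.011, close to the highest p-value in any list, 0.012. Just outside the rule lay 1168 regions with a peak in both Control lists and in 1 FUSO list, where the FUSO peak had a median p-value of 0.00015, and 2788 regions with a peak in a single Control list and no other, where it had a median of 0.0013. The regions just outside were thus of similar p-value to many members.

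ID1, an inhibitor of basic helix-loop-helix transcription factors and a target of BMP signals, held the member with the lowest p-values. Its region, chr20:30193086-30193262, covered the first 171 nt of the transcript, that is the 5′UTR and the start of the coding sequence in exon 1, with p-values of 1.3e-57 in Control 1 and 7.9e-39 in Control 2. A separate region across the stop codon and 3′UTR of ID1, 354 nt further on, was called in all 4 lists at 9.8e-08, 7.1e-08, 8.7e-06 and 3.1e-10 in Control 1, Control 2, FUSO 1 and FUSO 2. The 3′ region thus had overlapping p-values in the conditions, while the 5′ region, much the stronger of the pair in Control, had no FUSO peak. ID1 was among 17 members whose larger Control p-value was below that of the strongest all-list region of their gene, while the other 337 of 354 were weaker than that region.

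Behind ID1, the members with the lowest p-values belonged to genes of varied function. PDXK makes the active form of vitamin B6, SRSF9 is an SR splicing factor, RPS15 is a protein of the small ribosomal subunit, ATP5F1D is a subunit of the mitochondrial ATP synthase, CPOX acts in haem synthesis, EIF4A3 is the helicase of the exon junction complex and PFN1 binds actin. The next were NDUFAF8 (assembly of respiratory complex I), NOL7 and NOLC1 (nucleolar proteins), WRNIP1 (replication), SLC7A5 (a carrier of large neutral amino acids), DAZAP1 (RNA binding), COPRS (a partner of the arginine methyltransferase PRMT5), AES (a co-repressor, also called TLE5), EFHD2 (calcium binding), HEBP2 (haem binding), DNAJB1 (an HSP40 co-chaperone) and HDGFL2. Of these 20 regions, 11 began within 150 nt of a transcript start, 11 had at least 70% GC and 17 held a GGAC, and GC content ran from 56.5% to 80.4%. The 20 genes had mean FPKM from 15.2 for PDXK to 1333 for RPS15.

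In 14 of these 20 regions the gene had another region with a peak in a FUSO list. ATP5F1D showed the arrangement of ID1: its member covered bases 1 to 234, with p-values of 1.6e-36 and 4e-20, and a 3′ region from base 673 to the end was called in all 4 lists. In SLC7A5 the member lay at bases 9 to 339 and the gene's 2 other regions, at bases 1657 to 2376 and 2915 to 4144, were called in every list, the latter with a p-value listed at 0 in each. PDXK kept a 3′UTR region in all 4 lists at p-values from 1e-91 to 4e-47, while its member, at 2e-29 and 2.5e-31, lay in the 5′UTR of another coding transcript. In EIF4A3, PFN1, NOL7, WRNIP1 and COPRS no other region was present in all 4 lists, and that of COPRS was FUSO-only.

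**Figure D2:**
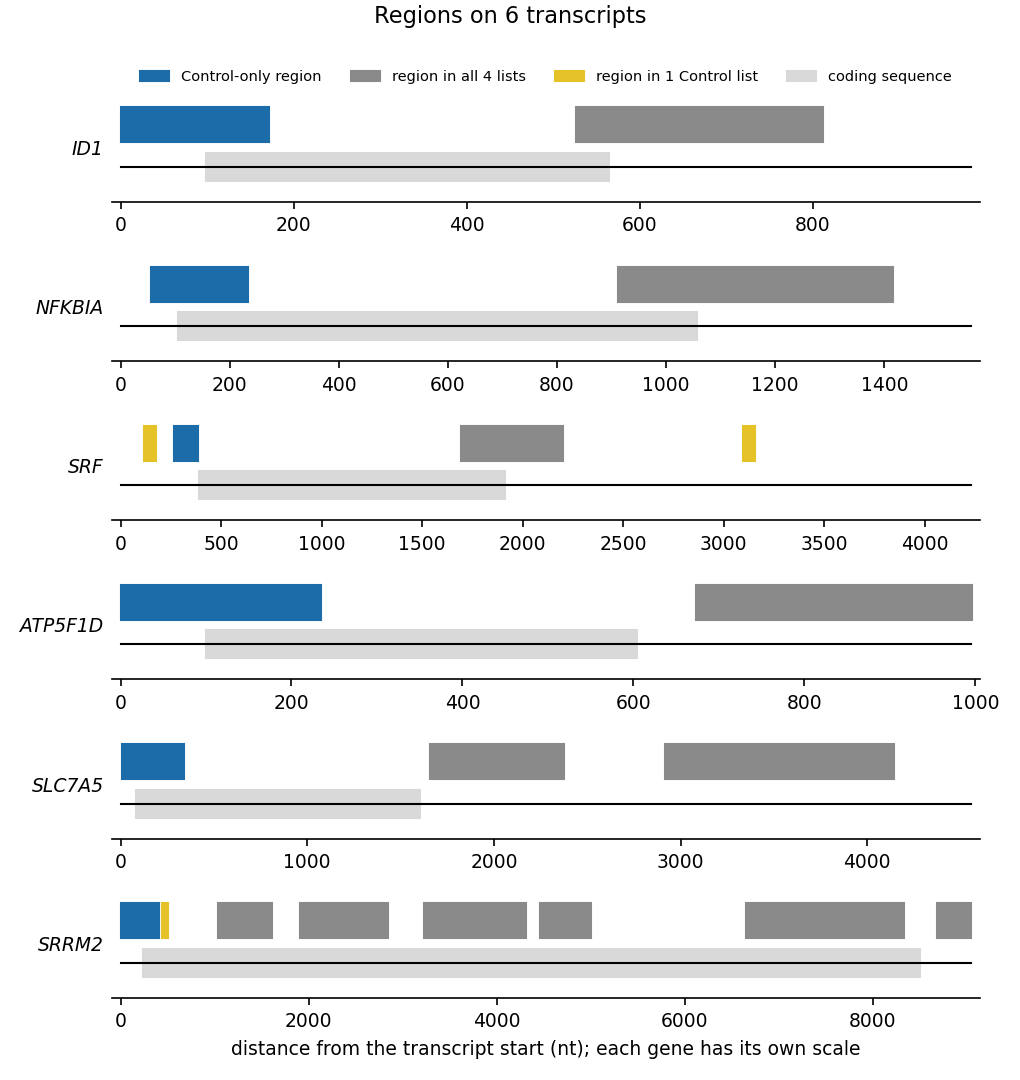
Regions on the canonical transcripts of 6 genes, by distance from the transcript start (x axis, nt, own scale for each gene): Control-only regions in blue, regions in all 4 lists in dark grey, regions in a single Control list in yellow, and the coding sequence as a light grey bar. In each gene the Control-only region lay in the 5′ part of the transcript and at least 1 region in all 4 lists lay further 3′. The 6 genes were picked as examples and do not stand for all members. Of the 453 members on a canonical coding transcript, 108 began within 150 nt of its start.

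Most members were 1 of several regions in their gene. Another region of the gene with a peak in at least 1 FUSO list is called kept here, whether or not it was also called in Control. The word thus includes regions with no Control peak, as in COPRS, and is not a measure of retention. Of the 581, 455 (78.3%) lay in a gene with another region that had a peak in a FUSO list, and 354 (60.9%) in a gene with another region present in all 4 lists. For comparison, 54.4% of FUSO-only regions and 50.5% of regions in all 4 lists had another all-list region in the gene. Of the 455, 198 had 1 such other region, 228 had between 2 and 4, and 29 had 5 or more, with a largest number of 10 in DST. On the same transcript (n = 352), the nearest such region lay a median of 447 nt away (interquartile range 149 to 1074 nt), 69 members lay within 100 nt of it and 99 more than 1000 nt from it.

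The strongest all-list region beside a member was most often 3′ in the transcript. For these 354 members, it was placed in the 3′UTR in 149, in the coding sequence in 101, at the stop codon in 65, in the 5′UTR in 1 and off the canonical transcript in 38. It had a median length of 596.5 nt and a median GC content of 54.3%, where the members beside it had 210 nt and 61.1%. Taking the 516 all-list regions of member genes together, 122 (23.6%) had weaker p-values in both FUSO lists and 64 (12.4%) stronger ones, beside 18.9% and 15.7% over all genes.

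The member genes with the most all-list regions were SRRM2 (a spliceosome scaffold), NSD2 (a histone H3 lysine 36 methyltransferase) and DST (a cytoskeletal linker) with 6 each, followed by EPPK1 (epiplakin), PCNT (pericentrin, of the centrosome) and RBM41 (an RNA-binding protein), tied at 5 each. In SRRM2 the member covered bases 1 to 411, at p-values of 4e-17 and 5.6e-06, and the 6 all-list regions were spread from base 1041 to the end of the 9044 nt transcript. The member of DST was a 121 nt region of 33.9% GC, at 0.0023 and 0.0019, so that the genes with many regions held members of quite different strength.

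More than 1 Control-only region lay in 24 genes. MYH9, the heavy chain of nonmuscle myosin IIA, held 3 members, all in the coding sequence, at bases 2838 to 3228, 4277 to 4427 and 5296 to 5506 of the transcript, and kept 3 other regions, the nearest 149 nt from a member. The other 23 genes held 2 members each. Among them were TCF25, SHISA8, NEIL1 (a DNA glycosylase), CLASRP (an SR-like protein) and TNIP2 (an inhibitor of NF-kB signalling), which had no region in a FUSO list. EFHD2, EVPL (envoplakin), CLUH (which binds mRNAs of mitochondrial proteins) and the cullins CUL7 and CUL9, scaffolds of ubiquitin ligases, had at least 1.

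For 123 genes no region had a peak in a FUSO list. The 10 of these 123 with the lowest p-values were SRSF9, RPS15, CPOX, NDUFAF8, AES, HEBP2, XAB2 (a spliceosome and DNA repair factor), TCF25, C1orf122 and ALKBH6 (of the AlkB family). The SRSF9 member covered 418 nt of exon sequence, bases 24 to 441 of a 1152 nt transcript, and no other region was called in the gene. Of all members, 92 (15.8%) were the only region of their gene in any list. These sole regions had a median GC content of 64.4%, and their genes a median of 12.5 FPKM. That median stood above the 9.07 FPKM over all genes with a member. Of the 92 sole regions, 11 had a gene outside the expression data and 68 a gene with a mean of at least 1 FPKM. The rest had a gene under 1 FPKM, so low expression was also present in this group.

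In 25 genes a Control-only and a FUSO-only region occurred together. The 5 with the lowest p-values were COPRS, TIMP2 (an inhibitor of metalloproteinases), TMF1 (a Golgi protein), DIS3 (a nuclease of the RNA exosome) and CENPO (a centromere protein). The member of TIMP2, at bases 1 to 298 in the 5′UTR with 81.7% GC and p-values of 1.1e-08 and 2e-14, was the most GC-rich of these 5. That of DIS3, at bases 543 to 663 in the coding sequence, had 35.5% GC and p-values of 2.2e-05 and 5e-05.

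The members covered many functions. Of the zinc-finger genes, 34 of 431 with any region held a member (7.89%), and of the genes for ubiquitin conjugation and removal 19 of 227 (8.37%), beside 5.08% of all genes with a region. A FUSO-only region lay in 31 of the same 431 zinc-finger genes and in 8 of the 227 ubiquitin genes. Over all 11155 genes with a region, 514 held a FUSO-only one. The zinc-finger share was thus not particular to Control-only regions. These shares are counts without a test. The zinc-finger members with the lowest p-values were ZNF655, ZFP36L2 (which binds AU-rich mRNAs) and ZNF517, and the ubiquitin members UBE2M (the NEDD8-conjugating enzyme), CUL9 and UBE2D2. Smaller lists gave RPS15 of 32 cytosolic ribosomal protein genes, MRPL38 and MRPL58 of 62 mitochondrial ones, ATP5F1D of 39 respiratory chain genes, EIF4A3 and EIF4G3 of 54 translation factors, PSMD3 of 31 proteasome genes, and SRSF9, SRRM2, PRPF40B and SRRM3 of 48 genes for SR proteins and the spliceosome. A list of 86 chromatin genes, drawn from the KDM, KMT, SMARC, ARID, CHD, HDAC, SETD, BRD, EZH, CBX, PHC and EHMT families, and the 12 histone genes with a region gave 0 members, while chromatin genes outside that list, such as NSD2, ASXL1 and KAT6B, held 1 each.

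Signalling and RNA-binding lists contributed few genes each. The chaperones gave DNAJB1, BAG1 and DNAJC7 of 63, the cyclins and CDKs CCNL2, CCNE1 and CDK11B of 40, the solute carriers 7 of 188 led by SLC7A5, SLC6A8 and SLC16A8, and the Rab, Sec and Vps traffic genes 4 of 96 led by RAB1B, VPS18 and RAB35. RBM10, RBM15B and RBM41 of 58, EIF4A3 and DDX19B of 50 DEAD and DEAH box genes, KIF12 and KIF3C of 30 kinesins, and SOX9, FOXJ2 and KLF5 of 66 KLF, SOX, FOX and HOX factors completed these groups. Of 19 genes for m6A writers, erasers and readers, RBM15B, which helps to recruit the writer, held a member, a 3′UTR region at 0.0028 and 0.00014, and the gene kept a region in all 4 lists. The NF-kB list gave TRAF1 and NFKBIA of 25, the immediate early genes JUND and SRF of 20, the dual-specificity phosphatases DUSP8 and DUSP2 of 17, the Hippo pathway VGLL4 and WWC1 of 21, and the ID and BMP-TGFB list ID1 of 24.

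Expression in the input libraries asks whether the mRNAs that carried a member changed in amount. FPKM, the fragments of a gene scaled by transcript length and by library size, were deposited for each library. The test was limma on log2(FPKM + 1) over the 11088 genes whose mean over the 4 libraries reached 1 FPKM, with Benjamini-Hochberg adjustment over all of them. Of the 567 member genes, 523 were in the expression table and 471 passed the filter, while 52 were below it and 44 were not matched by symbol. In bulk RNA, a change in the number of expressing cells and in RNA per cell cannot be told apart. The epithelial markers EPCAM and KRT8 were at least 162 FPKM in every library, and the leukocyte and endothelial markers were at most 0.123 FPKM. Of the intestinal markers CDX2 was at 2.73 to 3.73 FPKM, and LGALS4 was listed at 0 in both Control libraries and at 0.251 and 0.0770 FPKM in FUSO. The collagen gene COL1A1, a fibroblast marker, was at 4.51 and 3.78 FPKM in Control and 5.72 and 5.05 FPKM in FUSO, while COL1A2 was listed at 0 in all 4 libraries, and the part of these levels in the results was not tested.

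Expression of most member genes was little changed. At a limma adjusted p-value under 0.05, 5 of 471 (1.06%) were higher in FUSO, where 0.667% of all tested genes were, and 1 (0.212%) was lower, where 0.135% of all were, which makes 6 in either direction beside 0.803%. Of the 5, PRSS23 passed the filter on low values only through its FUSO libraries, which leaves 4 without it. Without Control replicate 2 the counts were 8 higher and 8 lower, and without FUSO replicate 1, or without FUSO replicate 2, they were 1 and 0. Their median log2 fold change was -0.01 (interquartile range -0.11 to 0.08), beside 0.01 (-0.08 to 0.11) over all tested genes, and 87.3% of them lay within 0.25 of 0 on the log2 scale, beside 88.0% of all. Both FUSO libraries were above both Control libraries for 109 (23.1%) and below both for 138 (29.3%), where 26.1% and 21.1% of all tested genes were. At an unadjusted p-value under 0.05, 33 member genes (7.01%) were higher and 48 (10.2%) lower, with 7.04% and 6.45% of all genes so called. For the 455 member genes with a GC value, limma on values corrected for GC content gave 27 higher (5.93%) and 44 lower (9.67%) at an unadjusted p-value under 0.05, where 31 and 46 were so without the correction, and 6.90% and 7.25% of all genes were with it. The corrected median log2 fold change was -0.00223 for the members and 0.000531 for all genes. The 68 tested genes of sole regions had a median log2 fold change of 0.00, and 0 passed the limma adjusted p-value, with 7 higher and 5 lower at an unadjusted p-value under 0.05.

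**Figure D3:**
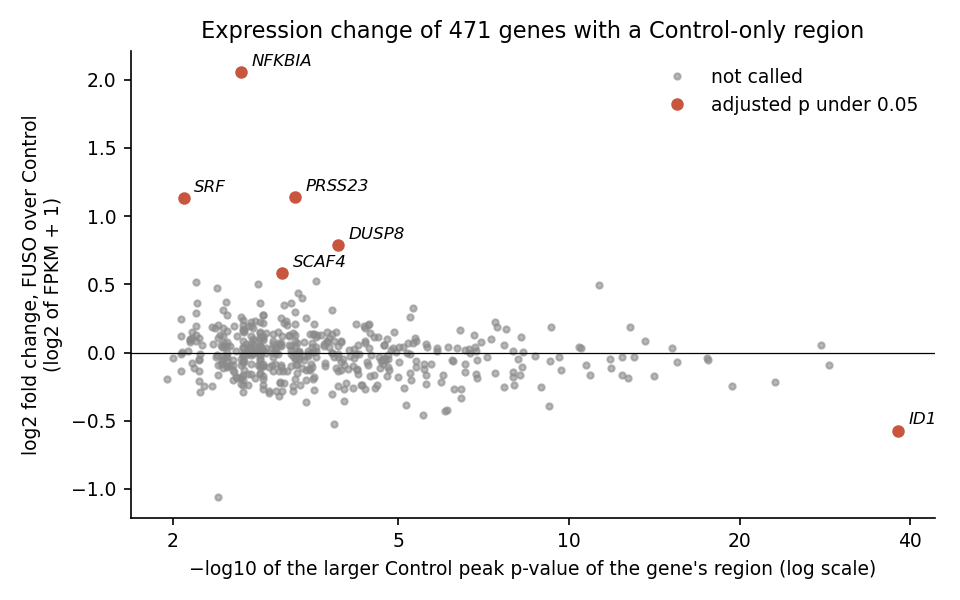
Log2 fold change of expression, FUSO over Control (y axis, on the log2(FPKM + 1) scale), against the −log10 of the larger Control peak p-value of the gene's Control-only region (x axis, log scale) for the 471 tested genes. The 6 genes in red passed an adjusted p-value of 0.05, and most other points lie within 0.25 of 0 at every peak strength.

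ID1 fell. Its FPKM was 235 and 219 in the Control libraries and 154 and 151 in the FUSO libraries, so that both FUSO libraries lay below both Control libraries. The log2 fold change was -0.57 ± 0.06 (SE), with a limma adjusted p of 0.0201. ID1 was the only gene of the 20 lowest-p regions that passed the test. The call was lost without FUSO replicate 1 (adjusted p = 0.246 by limma) and without FUSO replicate 2 (adjusted p = 0.26 by limma), with log2 fold changes of -0.59 and -0.56, and also without the trend (0.0676) and without the filter (0.0613).

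NFKBIA, which encodes the inhibitor IkBα that holds NF-kB in the cytoplasm and is itself induced by NF-kB, rose most. The Control libraries held 19.6 and 20.7 FPKM and the FUSO libraries 84.8 and 89.1 FPKM, so the groups stood far apart, and its log2 fold change was 2.06 ± 0.06 (SE), with a limma adjusted p of 0.000524. Its member, chr14:35873724-35873901 on the minus strand, covered bases 55 to 232 in exon 1, across the start codon, with p-values of 0.0023 and 2.3e-05. The gene's 3′ region, at bases 912 to 1414, had a peak in every list, at 2e-14 and 4e-17 in the Control lists and lower, at 2.5e-45 and 5e-50, in the FUSO lists. A weak 5′ region thus had no FUSO peak in a transcript that was more abundant, and whose 3′ region had lower p-values, in FUSO.

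SRF, a transcription factor of serum response and actin genes, showed the same pair of regions. Its expression was 8.76 and 11.1 FPKM in Control and 22.5 and 23.1 FPKM in FUSO, with no overlap, and the log2 fold change was 1.13 ± 0.11 (SE), limma adjusted p of 0.0201. The member lay in the 5′UTR at bases 266 to 385, at 0.0018 and 0.0081, just ahead of the coding sequence. The region across the stop codon, at bases 1695 to 2202, reached 5e-28 and 1.6e-52 in the Control lists and 1.3e-63 and 1e-74 in the FUSO lists.

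DUSP8, SCAF4 and PRSS23 were the other genes called higher. DUSP8, a phosphatase of the stress kinases, rose from 1.81 and 1.69 FPKM to 3.75 and 3.76 FPKM (log2 fold change 0.79 ± 0.09, limma adjusted p of 0.0265), with a member in the coding part of exon 7. SCAF4, which acts on RNA polymerase II termination, rose from 7.94 and 8.48 FPKM to 12.9 and 12.7 FPKM (0.58 ± 0.07, limma adjusted p of 0.0421), with a member in the coding sequence 237 nt from a region kept in all 4 lists. For both genes each FUSO library lay above each Control library. The call of SCAF4 was lost with quantile normalization (limma adjusted p of 0.0537), without the trend (0.0589), without the filter (0.105), with the replicate block (0.0575), without Control replicate 1 (0.0534) and without FUSO replicate 1 (0.358) or 2 (0.30). PRSS23, a secreted serine protease, had 0.824 and 0.597 FPKM in the Control libraries, against 2.74 and 2.78 FPKM in the FUSO libraries; since its Control libraries were under 1 FPKM it passed the filter only through its FUSO values, and its call supports nothing here. The PRSS23 member lay in the 3′UTR of a longer transcript that overlaps FZD4 on the other strand, so it cannot be assigned to PRSS23 with certainty. Without FUSO replicate 1, and likewise without FUSO replicate 2, NFKBIA alone of the 6 called genes passed the test.

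Genes of the lists that hold a called member gave the following counts, beside 0.667% of all tested genes higher and 0.135% lower (7.04% and 6.45% unadjusted). By limma at an adjusted p-value under 0.05, 11 of 30 tested genes of the NF-kB list were higher and 0 lower (18 and 0 at an unadjusted p-value under 0.05), and 10 of 18 immediate early genes were higher and 0 lower (13 and 0 unadjusted). Of 17 dual-specificity phosphatases 3 were higher and 0 lower (5 and 1 unadjusted), and of 21 genes of the ID and BMP-TGFB list 0 were higher and 2 lower (1 and 3 unadjusted). Among the other lists, 3 of 339 zinc-finger genes, 2 of 24 Hippo genes, 1 of 54 KLF, SOX, FOX and HOX factors and 1 of 50 cyclins and CDKs were higher, and 1 each was lower of the cyclins and CDKs, the chromatin list, the HNRNP and RBM list and the cytosolic and mitochondrial ribosomal lists. At an unadjusted p-value under 0.05 the mitochondrial ribosomal list held 1 higher and 11 lower of 79, and the SR and spliceosome list 0 higher and 10 lower of 51, with 0 in either direction at the adjusted p by limma in the latter. The lists of the respiratory chain, translation factors, DEAD and DEAH box genes, proteasome, chaperones, solute carriers, kinesins, ubiquitin genes, traffic genes, histones and m6A genes likewise held 0 calls by limma, with 0 to 15 genes a list higher and 1 to 10 lower at an unadjusted p-value under 0.05. The lists were chosen with earlier results of these data known. In these lists the members were NFKBIA, SRF, DUSP8 and ID1, together with JUND (44.8 and 30.4 FPKM in Control, 46.1 and 47.1 in FUSO, limma adjusted p of 0.458), DUSP2 (18.0 and 17.9, then 19.8 and 18.9 FPKM, limma adjusted p of 0.529) and TRAF1, which was below the filter.

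The most highly expressed member genes did not pass the test apart from ID1. RPS15 was at 1487 and 1378 FPKM in Control and 1197 and 1268 in FUSO, below Control in both libraries, with a log2 fold change of -0.22 ± 0.06 (SE) and a limma adjusted p of 0.261. PFN1 was at 775 and 769, then 731 and 742 FPKM (limma adjusted p of 0.536). DNAJB1 was at 112 and 113, then 149 and 170 FPKM, above Control in both FUSO libraries, with a log2 fold change of 0.49 ± 0.08 and a limma adjusted p of 0.0875. SRSF9, whose only region was Control-only, was at 132 and 131, then 130 and 143 FPKM, with overlapping groups. EIF4A3, PTGES3, ANP32B, NOLC1 and ATP5F1D, the other genes of the 10 with the highest means, had log2 fold changes between -0.25 and 0.14.

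At the lower end of the fold changes stood LPGAT1, ID1, NPIPB12, PLEKHN1 and CLASRP. LPGAT1, an acyltransferase, had the lowest value (-1.06 ± 0.58, limma adjusted p of 0.475), which rested on 1 library: it was at 5.63 and 4.62 FPKM in Control, 0.520 in FUSO 1 and 4.67 in FUSO 2. NPIPB12 (-0.52 ± 0.17, limma adjusted p of 0.302) belongs to a family of near-identical copies, between which reads can be split. PLEKHN1 (7.99 and 7.77, then 5.44 and 5.51 FPKM, limma adjusted p of 0.101) and CLASRP (31.7 and 28.0, then 22.4 and 21.5 FPKM, limma adjusted p of 0.139) were below Control in both FUSO libraries without passing the test.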

How the data were processed

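HCT116 cells with and without F. nucleatum were profiled by m6A-seq, with 2 replicates of input and of IP per condition. Per the labels, the submitters' processing notes name Trim Galore 0.3.3, HISAT2 2.1.0, StringTie and the build hg19. The authors deposited 1 peak list per replicate, with spliced exon blocks and a score read here as the p-value of the peak, because its values lie between 0 and 0.012 (17039 to 18365 peaks per list). The study's methods name MACS2 as the peak caller, while the spliced blocks of the deposited lists resemble the output of another caller, so the caller behind them is uncertain. FPKM per gene were deposited for the 4 input libraries. No read counts accompany either kind of file, so depth is unknown and no counting interval is given.

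Peaks were merged with Python 3.11.15 and annotated with GENCODE release 44 lifted to GRCh37, the build of the lists. The expression test used R 4.3.3 and its package limma 3.58.1 (eBayes with trend). P-values of the expression test rest on the spread between 2 replicates per condition, which eBayes moderates with the spread of other genes. Each peak p-value comes from the list of its own replicate and measures no spread between replicates. Both scripts were tested on simulated data.

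The members, gene lists and named genes were chosen with earlier results of these data known. Named genes were the 20 members with the lowest larger Control p-value, genes called by limma, genes with several members, 5 with Control-only and FUSO-only regions, 3 per list, the 10 most expressed, 10 with no FUSO region, 5 with most kept regions and the 5 highest and lowest fold changes. PRSS23 with FZD4, and the other opposite-strand pairs, were named after their values were seen. Shares by GC content in the lists, in the regions left after dropping a list and in all-list regions, with and without the members, and unadjusted counts after GC correction were computed after seeing the data. Alternatives changed the overlap rule, the peak threshold, the lists, the pseudocount (0.1), the filter, the scaling, the trend, the block and the place rule. The result of 1 gene list is not reported here.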

Additional observations from a re-analysis of the deposited data

How the results depend on the processing

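The number of Control-only regions, 581, rested on the lists and thresholds: it was 349 when each list kept only peaks at p of at most 1e-05 (102 of them shared with the 581), and 102 when that limit held for the Control peaks alone. With a list left out it ran from 945 (without FUSO replicate 2) to 2403 (without Control replicate 1), all 581 being among these by construction. A reciprocal overlap of 50% gave 811, of which 355 of the 581 had a counterpart. The share of members in genes with another region in a FUSO list, 78.3%, was 90.1% with the reciprocal overlap, 59.9% and 68.6% at the 2 stricter limits, and 72.5% to 80.2% with a list left out. Placed by the region's start, 25.4% of members fell in the 5′UTR and 5.08% at the stop codon, beside 11.8% and 9.22% of all-list regions. A DRACH in place of GGAC was held by 93.1% of members. Of member genes, 5 higher and 1 lower became 1 and 0 with no filter on low values, and 4 and 0 without the trend; among genes of the stricter regions they were 0 and 1. With a library left out they ran from 1 to 8 higher and 0 to 8 lower, and NFKBIA was the only gene called in every one of these fits. The median log2 fold change of member genes (-0.00784) was -0.0290 after quantile normalization, -0.0576 among genes of the stricter regions, and -0.0185 to -0.00888 with a library left out. In these alternatives no log2 fold change of a called gene changed sign.

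The labels do not tie replicate numbers to a shared culture, and the deviations of Control 1 and FUSO 1 from their group means correlated at 0.0243; with the replicate block, 4 member genes were called higher and 1 lower, SCAF4 being lost. With 2 replicates a side and no counts, the absence of a peak carries no error. The expression test rests on the spread of 2 libraries a side, moderated by eBayes with the spread of other genes.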
